A study of Homo sapiens with 16 samples.

Results

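The genes described here carry acetyl-CoA into cholesterol and into fatty acids, together with the proteins that control this programme. They were taken from a list of 34 names, 2 of which are older symbols of listed genes (SC4MOL for MSMO1 and SC5DL for SC5D), so that 32 genes were followed. All 32 were found in both expression tables, among 22892 genes with 1 row each in the table from the HiSeq instrument and 25606 in the table from the NextSeq instrument. The list contains 7 genes of the mevalonate steps, 3 that make squalene and turn it into lanosterol, and 8 that lead from lanosterol to cholesterol. It also holds 6 regulators and transport proteins and 8 genes of fatty acid and glycerolipid synthesis.

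The cells were HT1080, an established human fibrosarcoma line, in which a Tet repressor holds an XIST cDNA at a low level until doxycycline (DOX) is added. XIST is the long non-coding RNA that coats and silences an X chromosome. The transgene was placed in single clones at 1p, 8p or 12q, inside introns of MACF1, AGPAT5 and FAM222A (listed as C12orf34), and DOX was given for 5 days. The HiSeq table holds 6 libraries of poly-A RNA. They are the 8p clone without DOX (1 library) and with DOX (2 libraries), the 1p XIST clone with DOX (1 library), a 1p clone carrying a vector with DOX (1 library) and the 12q clone with DOX (1 library). The NextSeq table holds 1 library each of the 1p and 12q clones without and with DOX. All clones carry the Tet repressor, the 12q clone from a repressor subclone separate from that of the 1p and 8p clones, so that clone and site cannot be told apart. The study's methods speak of separate 8p clones with DOX, while the labels do not say which clone or culture each of these libraries came from. The p-values measure only the spread between these libraries, the differences between clones included.

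XIST stood at 3.38 FPKM (fragments scaled to transcript length and to the number mapped in the library) in the 8p No DOX library and at 99.0 and 89.7 FPKM in the 8p DOX libraries. It was listed at 23.8 FPKM in the 1p XIST and 61.9 FPKM in the 12q HiSeq libraries, and at 0.0705 FPKM in the vector clone. On NextSeq it went from 4.17 to 22 FPKM in the 1p clone and from 3.75 to 67.6 FPKM in the 12q clone, without and with DOX. Between 10975 and 11240 genes reached 1 FPKM in the HiSeq libraries and between 11116 and 11399 in the NextSeq libraries. Read numbers are not part of the tables, so the depth behind each FPKM value is unknown. All 8 mesenchymal markers were at or above 1 FPKM in every library. None of the 5 hepatocyte or 4 adipocyte markers reached 1 FPKM, and 1 of the 4 leukocyte markers did so on HiSeq, at no more than 1.72 FPKM. The NextSeq 12q DOX library stood apart in 3 of 4 epithelial markers, with EPCAM at 2.38, CDH1 at 1.38 and KRT19 at 0.964 FPKM, against at most 0.0906 FPKM for these genes in any other library.

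Cells make cholesterol from acetyl-CoA through mevalonate, farnesyl diphosphate, squalene and lanosterol, and the enzymes of this route are transcribed together. When sterols in the endoplasmic reticulum are low, SCAP escorts the membrane-bound SREBP factors, encoded by SREBF1 and SREBF2, to the Golgi, where proteases free their transcription factor part. INSIG1 and INSIG2 hold SCAP back when sterols are plentiful. SREBP2 acts mainly on cholesterol genes and SREBP1c on fatty acid genes, and both bind the sterol regulatory element (SRE), usually close to binding sites of NF-Y, which recognises CCAAT, and of Sp1, which recognises GC-rich boxes.

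The promoter stretches below come from RefSeq (GRCh38.p14), given 5′ to 3′ on the strand of the gene. They are shown because INSIG1 and MSMO1 had the largest percent differences with DOX in the 8p clone, MVK had the largest in the 12q clone, and SREBF2 was the only one of the 28 genes with a promoter entry that had a complete match to the SRE letters. Capitals mark a match to TCACNCCAC or to its first or last 8 letters (TCACNCCA, CACNCCAC), and matches to CCAAT, on either strand, so that ATTGG is CCAAT on the opposite strand. The full SRE letters contain both shorter forms.
INSIG1 (chr7:155297628-155297737, plus strand): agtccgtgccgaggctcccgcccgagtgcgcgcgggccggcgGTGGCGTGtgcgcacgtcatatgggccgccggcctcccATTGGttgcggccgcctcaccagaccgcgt
MSMO1 (chr4:165327453-165327580, plus strand): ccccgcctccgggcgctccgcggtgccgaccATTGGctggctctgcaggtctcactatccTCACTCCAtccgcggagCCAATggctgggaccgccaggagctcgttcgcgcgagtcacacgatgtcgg
MVK (chr12:109573544-109573666, plus strand): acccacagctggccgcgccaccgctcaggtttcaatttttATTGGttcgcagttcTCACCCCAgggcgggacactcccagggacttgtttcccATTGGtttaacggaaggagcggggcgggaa
SREBF2 (chr22:41832912-41833039, plus strand): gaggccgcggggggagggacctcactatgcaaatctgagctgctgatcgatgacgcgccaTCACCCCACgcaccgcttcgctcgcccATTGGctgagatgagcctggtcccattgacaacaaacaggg

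In INSIG1 the SRE-like match begins 208 bases before the gene start, and a CCAAT match on the same strand as that match begins 170 bases before it. In MSMO1 the SRE-like match, 156 bases before the start, lies between 2 CCAAT matches that face opposite ways. In MVK it lies 195 bases before the start, also between 2 CCAAT matches. A promoter window of 300 bases (250 before the start and 50 after) was found for 28 of the 32 genes. CCAAT occurred in 17 of the 28 (60.7%), against 35.7% of all 27305 promoters, and the GC box GGGCGG in 26 of the 28 (92.9%), against 44.6%. The 27305 promoters were taken without regard to expression, whereas the 28 genes were all expressed here. The groups are thus unlike, and expressed genes alone were not used for comparison. The full SRE letters were in 1 of the 28 (SREBF2) and in 1.15% of all promoters. TCACNCCA was in 3 of the 28 (MSMO1, MVK and SREBF2) and in 3.93% of all, and CACNCCAC in 4 of the 28 (INSIG1, SCD, SC5D and SREBF2) and in 5.74% of all. These motifs were picked after the expression values had been seen, and a match is only a run of letters.

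Most of the 32 genes were well expressed in these fibrosarcoma cells. The mean level over the HiSeq libraries ran from 2.48 FPKM for TM7SF2, a sterol reductase, to 187 FPKM for SCD, the stearoyl-CoA desaturase, and both were also the lowest and highest on NextSeq, at 3.06 and 206 FPKM. After SCD, the next highest on HiSeq were FDPS (150 FPKM, farnesyl diphosphate synthase), FDFT1 (136 FPKM, squalene synthase), FASN (123 FPKM, fatty acid synthase) and HMGCS1 (107 FPKM, which makes HMG-CoA). The kinases MVK and PMVK stood much lower, at 14.5 and 6.70 FPKM, and so did SREBF1 at 6.78 FPKM against 58.2 FPKM for SREBF2. INSIG2 averaged 3.63 FPKM and INSIG1 49.8 FPKM. FPKM corrects for transcript length, so these levels can be set against each other within a table. FASN was 4th of the 32 on HiSeq and 15th on NextSeq, and levels from the 2 tables were not compared further.

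**Figure D1:**
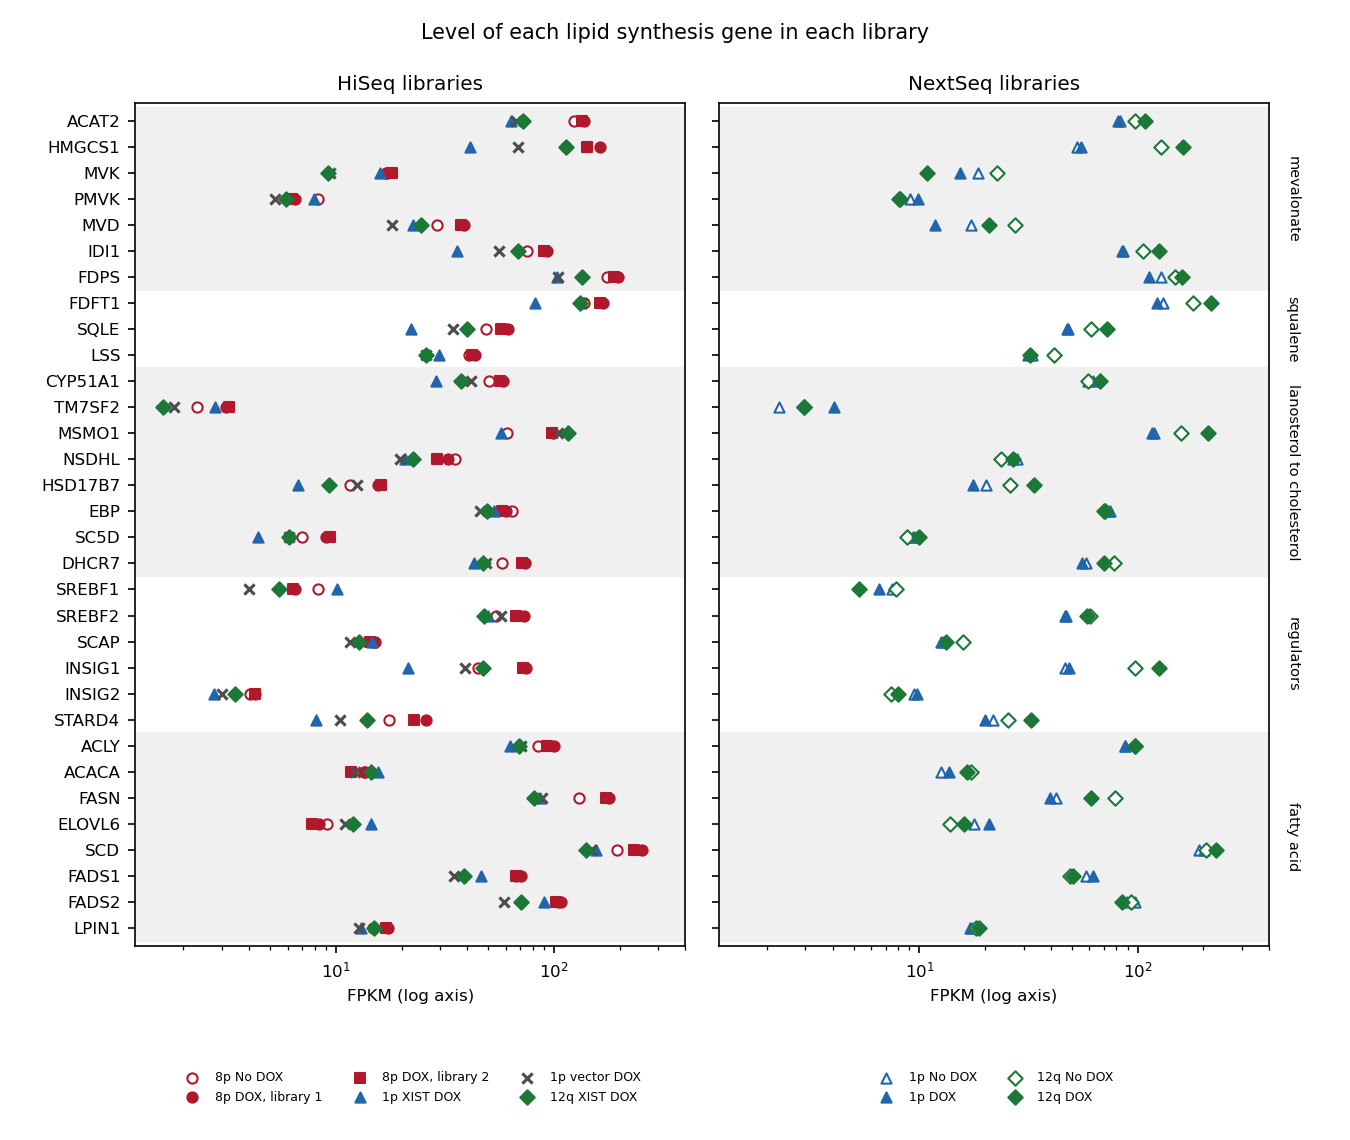
Level of each of the 32 genes in every library, in FPKM on a log axis, HiSeq on the left and NextSeq on the right; each symbol is 1 library and open symbols are No DOX. Both 8p DOX libraries lie to the right of the 3 other clones with DOX for 26 genes (39.9% of all genes), INSIG1, HMGCS1 and FASN among them. The 1p XIST library is the lowest of the 6 for 15 (27.8% of all genes).

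The first question was whether the genes differed in the 8p clone between No DOX and DOX. In every XIST clone DOX was added and XIST induced together, and the vector clone has no library without DOX. Effects of DOX itself and of XIST therefore cannot be told apart in the comparisons of DOX with No DOX. In both DOX libraries the cholesterol genes sat above the No DOX library for the most part. INSIG1 was 62.9% higher and MSMO1, the sterol methyl oxidase, 61.0% higher. STARD4, which carries sterols between membranes, was 38.6% higher, and HMGCS1, at the entry to the route, 35.1% higher. FASN was 34% higher. SREBF1 and PMVK were 21.8% and 22.2% lower. None of these differences passed the test across all genes.

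The limma fit on log2(FPKM + 1) used 11357 genes with a mean of at least 1 FPKM. All 32 genes passed that filter. The fit took its spread from the 8p DOX libraries and from the 3 other clones with DOX, which were treated as 1 class. It called 0 of the 32 higher and 0 lower (limma, Benjamini-Hochberg adjusted p from 0.854 to 1.0), where over all genes 0.0264% were called higher and 0.0616% lower. At an unadjusted p under 0.05 it picked 0 of the 32 and 5.56% of all genes. The median difference of the 32 was 0.19 on the log2 scale, and that of all genes -0.06. Counted without a test, 23 of the 32 were higher in both DOX libraries than in the No DOX library, against 36.5% of all genes, and 6 were lower in both, against 51.4% of all genes. A fit on the 3 libraries of the 8p site alone, where the spread is that between the 2 DOX libraries, called 10 of the 32 higher and 2 lower at an adjusted p under 0.05, against 11.5% and 19.8% of all genes (limma). The 10 were DHCR7, FASN, HSD17B7, INSIG1, MSMO1, MVD, SC5D, SREBF2, STARD4 and TM7SF2, and the 2 were PMVK and SREBF1. There the No DOX library is alone in its class and is assumed to vary like the DOX libraries.

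Among the regulators, INSIG1 (chr7:154720419-154732879, hg18) was at 45.0 FPKM without DOX and at 74.4 and 72.1 FPKM with DOX. The DOX libraries lay close together and far from the No DOX value, a difference of 0.69 ± 0.45 (log2, standard error; adjusted p = 0.856, limma). STARD4 was at 17.6 FPKM without DOX and at 25.9 and 22.8 FPKM with it. SREBF2, whose factor drives the cholesterol genes, was at 53.9 FPKM and then at 72.9 and 67.2 FPKM. SREBF1 went the other way, at 8.24 FPKM without DOX and 6.5 and 6.39 FPKM with it, so the DOX libraries were below the No DOX library for 1 SREBP gene and above it for the other. SCAP hardly differed, at 14.7 FPKM against 15 and 14.3 FPKM. INSIG2 was at 4.03 FPKM against 4.26 and 4.28 FPKM.

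Of the 7 genes of the mevalonate steps, 6 were higher in both DOX libraries and 1, PMVK, was lower in both. HMGCS1 was at 113 FPKM without DOX and at 163 and 142 FPKM with DOX. MVD, which makes isopentenyl diphosphate, was at 29.0 FPKM and then at 38.6 and 37.6 FPKM. IDI1, its isomerase, was at 75.2 FPKM against 92.6 and 90.3 FPKM. ACAT2, the cytosolic thiolase that supplies the first step, and FDPS were each about 10% higher (10.1% and 10.2%). PMVK, the kinase after MVK, was at 8.24 FPKM without DOX and 6.51 and 6.32 FPKM with it. Reads of ACAT2 may be shared with TCP1, which overlaps it on the other strand, as the use of strand in counting is not given. Reads of FDPS and HSD17B7 may be shared with related copies elsewhere in the genome.

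All 3 genes that make squalene and turn it into lanosterol were higher in both DOX libraries. The differences were 20.1% for FDFT1, 21.5% for SQLE (squalene epoxidase) and 4.95% for LSS (lanosterol synthase). Of the 8 genes from lanosterol to cholesterol, 6 were higher in both and 2, NSDHL and EBP, lower in both. MSMO1 was at 61.1 FPKM without DOX and at 98.5 and 98.1 FPKM with DOX, a difference of 0.68 ± 0.42 (log2, standard error). DHCR7, which makes cholesterol in the last step, was at 57.5 FPKM against 73.6 and 71.1 FPKM. HSD17B7, the sterol ketoreductase, was at 11.6 FPKM against 15.5 and 16.2 FPKM. SC5D, the sterol desaturase, was 31.9% higher, CYP51A1, the lanosterol demethylase, 14.4% higher, and TM7SF2 38.0% higher at a low level of 2.31 FPKM against 3.12 and 3.24 FPKM. NSDHL and EBP, both on the X chromosome, were 12.4% and 8.05% lower. Both DOX values of each gene thus stood on the same side in these steps.

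Of the 8 fatty acid genes, 4 were higher in both DOX libraries and 2 lower in both. FASN was at 131 FPKM without DOX and at 178 and 172 FPKM with DOX (0.42 ± 0.18, log2, standard error). SCD was at 194 FPKM against 253 and 233 FPKM. ACLY, which makes cytosolic acetyl-CoA from citrate, was 14% higher, and LPIN1, a phosphatidate phosphatase, 15.8% higher. ACACA, the acetyl-CoA carboxylase that precedes FASN in the route, was 6.78% lower. The polyunsaturated desaturases FADS1 and FADS2, neighbours on chromosome 11, differed by 2.42% and 1.10%. ELOVL6, an elongase, was 11.3% lower.

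**Figure D2:**
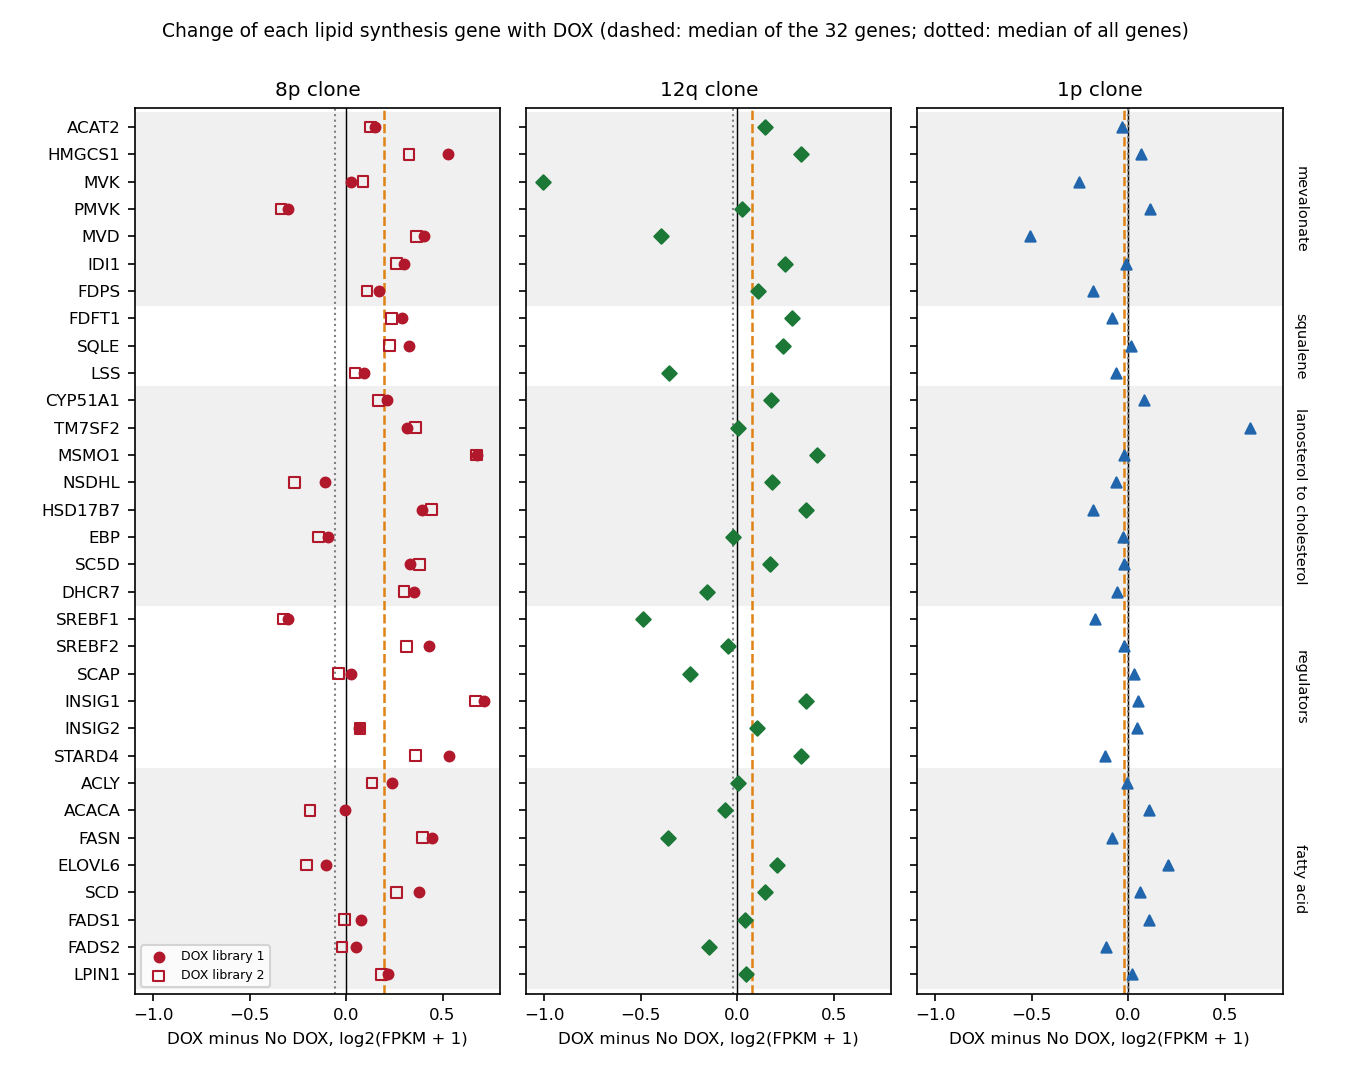
Difference in log2(FPKM + 1) between DOX and No DOX for each gene in the 8p clone (2 DOX libraries against 1), the 12q clone and the 1p clone (1 library against 1 each). The dashed line is the median of the 32 genes (0.19, 0.08 and -0.02), the dotted line that of all genes; INSIG1 and MSMO1 lie farthest right in the 8p clone and MVK farthest left in the 12q clone.

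The next comparison set the 8p DOX libraries against the 3 other clones that also received DOX, which compares the clones at equal treatment. The genes were again mostly higher in the 8p clone, and FASN and ACAT2 passed the test. FASN was at 86.1 FPKM in the 1p XIST clone, 87.8 FPKM in the vector clone and 80.8 FPKM in the 12q clone, all well under both 8p DOX libraries. Its difference was 1.04 ± 0.13 (log2, standard error; adjusted p = 0.0359, limma). ACAT2 was at 137 and 134 FPKM in the 8p DOX libraries and at 63.7, 66.8 and 71.8 FPKM in the 1p XIST, vector and 12q clones, a difference of 1.00 ± 0.14 (adjusted p = 0.0425, limma). The 8p No DOX library was itself above the 3 other clones for both, at 131 FPKM for FASN and 123 FPKM for ACAT2.

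In this fit 2 of the 32 were called higher and 0 lower, against 0.933% and 0.326% of all genes. Adjusted p ran from 0.0359 to 0.947, and an unadjusted p under 0.05 held for 21 higher and 1 lower of the 32 and for 25.5% of all genes. The libraries were not on 1 scale, since the median of all genes was already 0.19 higher in the 8p DOX libraries (log2). Relative to that, the median of the 32 was 0.43 higher. With each library shifted to a common median, 1 of the 32 was called (ACAT2), FASN having an adjusted p of 0.05002. Over all alternatives the adjusted p ran from 0.0359 to 0.577 for FASN and from 0.0370 to 0.613 for ACAT2, and the differences stayed between 0.84 and 1.06 and between 0.80 and 1.04 (log2). Leaving out either 8p DOX library, the 1p XIST library or the vector library left 0 of the 32 called, and leaving out the 12q library left 4, with FDPS and STARD4 added.

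Without a test, both 8p DOX libraries were above all 3 other clones for 26 of the 32, against 39.9% of all genes, and below them for 1, ELOVL6, against 10.9% of all genes. The 8p No DOX library was above the 3 other clones for 22 of the 32, against 55.3% of all genes, and below them for 1, against 10.3%. STARD4, at 25.9 and 22.8 FPKM in the 8p DOX libraries, was at 8.07, 10.5 and 13.9 FPKM in the 1p XIST, vector and 12q clones (1.13 ± 0.24, log2, standard error, adjusted p = 0.0792, limma). INSIG1 was at 21.5, 38.9 and 47.1 FPKM in those 3 clones (1.08 ± 0.33, adjusted p = 0.132). The 12q clone thus lay a little above the 8p No DOX library for INSIG1 and below it for STARD4. HMGCS1 spread most among the 3 clones, at 41.2, 68.6 and 113 FPKM, with the 12q library equal to the 8p No DOX library to 3 digits. SCD was at 155, 147 and 140 FPKM in the 3 clones, below every 8p library.

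**Figure D3:**
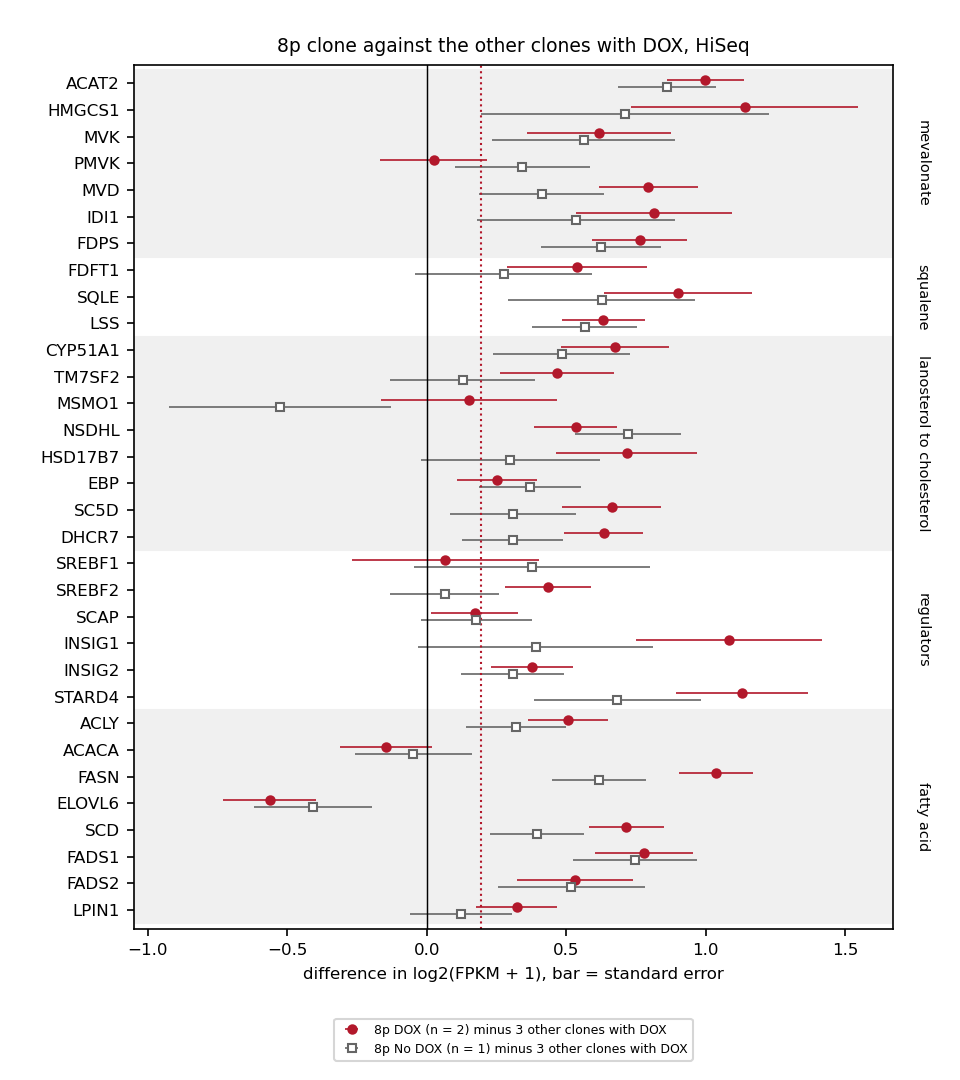
Difference in log2(FPKM + 1) from the 3 other clones with DOX, for the 8p DOX libraries (filled, n = 2) and the 8p No DOX library (open, n = 1), with the standard error of the limma fit as bars. The dotted line is the median of all genes for the filled points (0.19); FASN at 1.04 and ACAT2 at 1.00 are the called genes, and ELOVL6 is farthest left at -0.56.

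ELOVL6 and MSMO1 lie on the long arm of chromosome 4, where many genes were lower in the 8p clone. ELOVL6 (chr4:111189678-111339269, hg18) was at 9.10 FPKM in the 8p No DOX library, 8.39 and 7.77 FPKM in the 8p DOX libraries, and 14.5, 11.0 and 12.0 FPKM in the 1p XIST, vector and 12q clones. Its difference from the other clones was -0.56 ± 0.17 (log2, standard error, adjusted p = 0.124, limma). The 48 expressed genes within 10 Mb of it had a median of -0.75 relative to all genes in the same contrast, and the 25 around MSMO1 (chr4:166468268-166483764, hg18) one of -0.55. MSMO1 was at 57.4, 104 and 115 FPKM in the 1p XIST, vector and 12q clones, so that its 8p DOX level of 98.3 ± 0.23 FPKM (SD, n = 2) was inside their range, unlike that of most sterol genes. In the contrast of 8p DOX with 8p No DOX the genes around MSMO1 had a median of -0.11 relative to all genes. What the surroundings contribute to either gene was not tested.

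In the 12q clone, INSIG1, MSMO1, HSD17B7, STARD4 and HMGCS1 were higher with DOX, while MVK, MVD, LSS, FASN and SREBF1 were lower. This rests on 1 library a side, so there is no replicate check. INSIG1 was at 97.4 FPKM without and 125 FPKM with DOX (28.6% higher). MSMO1 was at 158 and 211 FPKM (33.3% higher), HSD17B7 at 25.9 and 33.5 FPKM (29.3% higher), STARD4 at 25.5 and 32.3 FPKM (26.7% higher) and HMGCS1 at 128 and 162 FPKM (26% higher). FDFT1, SQLE and IDI1 were 21.8%, 18.3% and 18.8% higher. In the other direction, SREBF1 was at 7.83 and 5.30 FPKM (32.4% lower), MVD at 27.5 and 20.7 FPKM (24.7% lower), FASN at 79.0 and 61.3 FPKM (22.4% lower) and LSS at 41.4 and 32.2 FPKM (22.2% lower). SCAP and DHCR7 were 16.7% and 10.3% lower. The other genes lay between -9.59% (FADS2) and 16.3% (ELOVL6), with TM7SF2 at 2.95 and 2.96 FPKM, ACLY at 97.3 and 97.6 FPKM and SREBF2 3.26% lower.

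Past a difference of 0.5 on the log2(FPKM + 1) scale there were 0 of the 32 upward, against 1.12% of all genes, and 1 downward, MVK, against 3.31% of all genes. The median of the 32 was 0.08 and that of all genes -0.02. The 12q DOX library is the one that stood apart in EPCAM, CDH1 and KRT19. The summed level of the 4 epithelial markers was 6.78 FPKM in it and 2.96 FPKM in the 12q No DOX library, and their part in these differences was not tested. Across the 32 genes the differences in the 12q and 8p clones, which come from separate tables with no library in common, had a Spearman correlation of 0.42 (0.16 over 10196 genes), and 18 of the 32 were above No DOX in both, against 20.8% of those genes. For the 1p and 8p clones it was -0.13 (0.03 over the same genes). Genes are not independent replicates, and these values only describe the libraries.

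In the 1p clone the 32 genes were nearly level between No DOX and DOX, with a median difference of -0.02 on the log2 scale and 0.00 for all genes. INSIG1 was at 46.7 and 48.4 FPKM, MSMO1 at 118 and 117 FPKM, HMGCS1 at 52.7 and 55.2 FPKM and FASN at 42.1 and 39.6 FPKM. Past 0.5 there was 1 of the 32 upward, TM7SF2 at 2.27 and 4.06 FPKM, against 0.632% of all genes, and 1 downward, MVD at 17.3 and 11.8 FPKM, against 0.851% of all genes. TM7SF2 was the least abundant of the 32. MVD was thus lower with DOX in both NextSeq clones and higher with DOX in the 8p clone. There is no replicate check here either, and the No DOX and DOX libraries of the 1p clone carry different replicate names.

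With both NextSeq clones in 1 limma fit with a term for the site, 0 of the 32 were called in either direction, where 0% of 11397 genes were called higher and 0.00877% lower. The adjusted p of the 32 ran from 0.702 to 1.0, and at an unadjusted p under 0.05 there were 1 higher (ELOVL6) and 3 lower (MVD, MVK and SREBF1), against 6.55% of all genes. MVD differed by -0.45 ± 0.07 and MVK by -0.63 ± 0.19 (log2, standard error, adjusted p = 0.702 for both, limma). This fit has 1 residual degree of freedom.

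The 1p and 12q clones themselves stood at different levels on NextSeq. Both 12q libraries were above both 1p libraries for 19 of the 32, against 37.7% of all genes, and below them for 5, against 34%. Without DOX, HMGCS1 was 2.43 times as high in the 12q clone as in the 1p clone, INSIG1 2.09 times, FASN 1.88 times and MVD 1.59 times. FADS1, INSIG2 and ELOVL6 were lower in the 12q clone, at ratios of 0.844, 0.785 and 0.772. With 1 library for each state, these ratios have no replicate check.

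The 1p XIST and 1p vector clones, both with DOX on HiSeq, give the comparison nearest to an XIST-free control. They are separate clones, so XIST and clone cannot be told apart in it. Some genes of the cholesterol route were lower in the XIST clone, while MVK, PMVK and SREBF1 were higher, again with 1 library a side. Past 0.5 on the log2 scale, 8 of the 32 were lower, against 9.84% of all genes, and 4 were higher, against 17.6%. The 8 were CYP51A1, FDFT1, HMGCS1, HSD17B7, IDI1, INSIG1, MSMO1 and SQLE. HSD17B7 was at 6.70 FPKM in the XIST clone and 12.6 FPKM in the vector clone (46.7% lower), INSIG1 at 21.5 and 38.9 FPKM (44.9% lower) and SQLE at 22.1 and 34.5 FPKM (35.8% lower). The 4 higher ones were FADS2, MVK, PMVK and SREBF1, the last at 10.1 FPKM against 4.02 FPKM. After shifting each library to a common median, 2 genes were past the limit on the higher side. The 1p XIST library was the lowest of all 6 HiSeq libraries for 15 of the 32, against 27.8% of all genes, and the highest for 3 (ACACA, ELOVL6 and SREBF1), against 10.5%.

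MVK and FDFT1 were set against the rest of the route because they lie on the chromosomes that carry the transgene. MVK (chr12:108495883-108519454, hg18) begins 141 bases from MMAB, a gene of cobalamin metabolism that runs the other way (chr12:108475904-108495741), and ends 117.1 kb from C12orf34, which hosts the 12q integration. In the 12q clone MVK was at 22.7 FPKM without DOX and 10.8 FPKM with DOX, 52.5% lower and last of the 32 in order of percent difference, well past SREBF1. The 10 nearest genes with a mean of at least 5 FPKM were all lower with DOX, by between 5.35% and 36.1% with a median of 27.2%. UBE3B, KCTD10 and UNG, the nearest on the MMAB side, were 28.7%, 26.8% and 30.5% lower, and GLTP, TCHP and GIT2 on the far side 30.9%, 17.4% and 26.3% lower. MMAB went from 5.03 to 3.13 FPKM. In the 1p clone, whose transgene is on another chromosome, MVK was at 18.6 and 15.4 FPKM, and its 10 neighbours had a median of -4.90%.

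On HiSeq, MVK was at 9.17 FPKM in the 12q DOX library and also at 9.37 FPKM in the vector clone, where XIST was at 0.0705 FPKM. It was at 16 FPKM in the 1p XIST clone and between 16.9 and 18.1 FPKM in the 8p libraries. The low level of the HiSeq 12q library was therefore matched by the vector clone, and there is no 12q No DOX library on HiSeq to set it against. MMAB was at 2.80 FPKM in the 12q library and at 4.68 FPKM in the vector clone, and between 5.37 and 6.49 FPKM in the others.

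FDFT1 (chr8:11697599-11734227, hg18) lies 5.09 Mb from AGPAT5, the host of the 8p integration. It was at 137 FPKM in the 8p No DOX library and at 168 and 162 FPKM with DOX, 20.1% higher, and stood 15th of the 32 in order of percent difference. Of its 10 nearest genes with a mean of at least 5 FPKM, 8 were lower with DOX, and their median was -21.2%. On the AGPAT5 side NEIL2, PINX1 and MSRA were 32.2%, 61.9% and 31.8% lower in the mean of the DOX libraries. On the other side CTSB and TUSC3 were 15% and 10.4% lower and DLC1 8.01% higher. FDFT1 thus stood with the cholesterol genes and apart from the genes around it. In the 12q clone FDFT1 was 21.8% higher with DOX and its neighbours had a median of 12.2%, and in the 1p clone it was 5.62% lower with a neighbour median of -1.24%. SQLE, on the long arm of the same chromosome, was 21.5% higher in the 8p clone. RNA-seq of whole clones cannot tell less RNA per cell from fewer cells with the RNA, and these FPKM values do not separate the alleles.

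**Figure D4:**
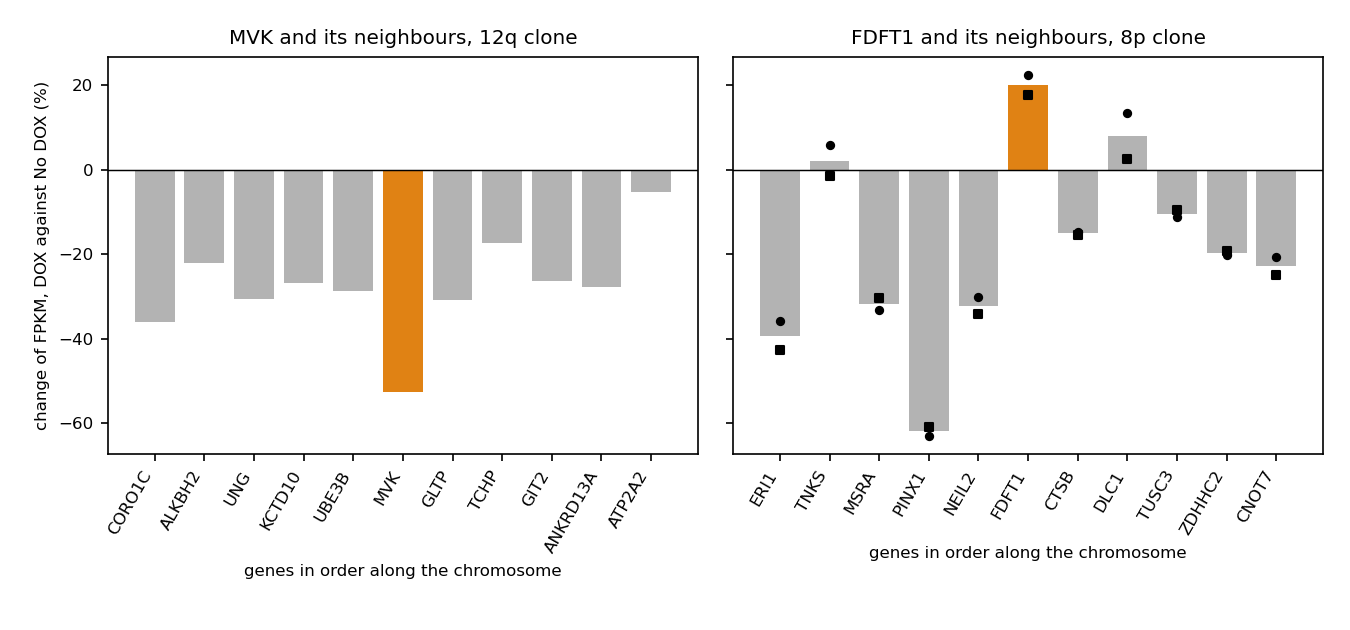
Percent difference in FPKM between DOX and No DOX for MVK in the 12q clone (left) and FDFT1 in the 8p clone (right), in orange, with the 5 nearest genes of at least 5 FPKM on each side in grey. On the right bars are the mean of 2 DOX libraries, shown as a dot and a square; MVK is at -52.5% among neighbours that are all below 0, FDFT1 at 20.1% among neighbours of which 8 are below 0.

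A wider set of 65 genes in 5 lists covered the supply of acetyl-CoA, other steps of fatty acid and glycerolipid synthesis, isoprenoid and sterol branches, the handling of SREBP, and the genes of the LXR receptors and sterol export. Of these, 58 passed the filter on HiSeq. In the 8p clone with DOX against No DOX 0 of the 58 were called in either direction, with 25 higher and 24 lower in both DOX libraries, against 36.5% and 51.4% of all genes, and a median of 0.02 (log2), against -0.06 for all genes. In the 8p DOX libraries against the other clones, 0 were called higher and 1 lower. That gene was COQ2, which attaches the isoprenoid tail of coenzyme Q, at 4.64 and 4.99 FPKM in the 8p DOX libraries and at 9.59, 10.7 and 11.7 FPKM in the 1p XIST, vector and 12q clones (-1.0 ± 0.15, log2, standard error, adjusted p = 0.0480, limma). COQ2 is on chromosome 4, and the 46 expressed genes within 10 Mb of it had a median of -0.78 relative to all genes in that contrast.

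On NextSeq, 0 of the 58 that passed were called in either direction by limma. Past 0.5 on the log2 scale there was 1 in the 1p clone, FADS3, a desaturase relative, at 31.4 and 20.9 FPKM, and 1 in the 12q clone, MMAB, and both were lower with DOX. Between the 1p XIST and vector clones 10 of the 58 were higher and 5 lower, close to the 17.6% and 9.84% of all genes. The acyl-CoA synthetases ACSL4 and ACSL5, which activate fatty acids, differed most (-4.26 and -2.46, log2). ACSL1, of the same family, was at 1.22 against 4.47 FPKM. The farnesyltransferase subunit FNTB was at 4.45 FPKM in the XIST clone and 1.14 FPKM in the vector clone. VCP and AUP1, which help to remove proteins from the endoplasmic reticulum, were higher in the XIST clone by 0.75 and 0.68, and SMPDL3A, an LXR target, by 0.78.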

How the data were processed

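The authors deposited gene-level FPKM values, made per the labels and the study's methods by aligning reads to hg18 with TopHat and Bowtie and quantifying with Cufflinks; versions are not given in the sources used here. Lines whose symbols had been turned into dates (26 in each table), lines of repeated symbols (735 on HiSeq, 878 on NextSeq) and 2 without a value were left out. ChIP samples were not analysed here. Genes with a mean FPKM of at least 1 in a table were tested on log2(FPKM + 1) with limma 3.58.1 (R 4.3.3, trended prior) and Benjamini-Hochberg adjustment over all genes, called under 0.05; other steps used Python 3.11.15. The HiSeq fit had 3 classes (8p DOX, 8p No DOX, other clones with DOX) and the NextSeq fit terms for site and DOX. Single-library contrasts used a limit of 0.5. FPKM is not a count, so no count test was used. The fits were tested on simulated data with a log2 change of 1 and no differences between clones. That does not show how well they find smaller changes among clones that differ. The 32 genes and the wider lists were chosen with earlier results of these data known. All 32 are named, MMAB, genes of the wider lists past a test or limit (at most 8 a comparison, by size), and the 3 nearest neighbours of MVK and FDFT1 on each side; a gene of the wider lists that this rule names is not reported here. hg18 positions come from the HiSeq table; SC5D is listed there as SC5DL. Alternatives were a pseudocount of 0.1, no filter or a mean of 5 FPKM, a median shift, other library sets and each replicate left out.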

Additional observations from a re-analysis of the deposited data

Results flagged for a closer look

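MVD and FASN went opposite ways with DOX in the 8p and 12q clones, by at least 0.25 on the log2(FPKM + 1) scale in each library. MVD was 0.40 and 0.36 higher in the 8p DOX libraries than in the 8p No DOX library and was at -0.39 in the 12q clone. FASN was 0.44 and 0.39 higher in the 8p clone and at -0.36 in the 12q clone. Genes within 10 Mb of MVD and FASN had medians of -0.15 and -0.18 in the 12q clone, relative to all genes (log2). In the 8p clone these medians were -0.02 and -0.05. The part of these surroundings in the MVD and FASN differences was not tested. The difference between the clones was not tested, since the values come from separate tables with 1 No DOX library each.

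Epithelial marker RNA appeared in the NextSeq 12q DOX library alone. EPCAM was at 2.38 FPKM there and at most 0.0497 FPKM in any other library, CDH1 at 1.38 FPKM against at most 0.0163, and KRT19 at 0.964 FPKM against at most 0.0906. In that library 97 genes were at 0.5 FPKM or more while under 0.05 FPKM in the other 3 NextSeq libraries, against 15 to 20 such genes in each of those 3. The part of this RNA in the 12q differences of the lipid genes was not tested.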

How the results depend on the processing

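No analysis paired by replicate number was possible, because no contrast has more than 1 pair of libraries with the same number in the labels (1A in the 12q clone). The NextSeq fit did compare DOX with No DOX within each clone, through its term for the site. With the 8p libraries alone, 10 of the 32 genes were called higher and 2 lower with DOX. Under the other alternatives none was called in that contrast, each HiSeq library except 8p No DOX left out included (0 to 0). The 8p No DOX library could not be left out of that contrast, as it is alone in its class. None was called in the NextSeq fit under a pseudocount of 0.1, no filter, a mean of 5 FPKM, the median shift or no site term; no library was left out of that fit. Against the other clones, 1 was called higher after the median shift and 0 to 4 with a library left out. With a limit of 1, 0 genes were past it in either direction in the 1p clone, and 1 higher and 0 lower between the 1p XIST and vector clones. A mean of 5 FPKM left 0 higher in the 1p clone, the median shift 0 lower there and 2 higher between XIST and vector, and a pseudocount of 0.1 gave 2 lower in the 12q clone. The median shift moved the median of the 32 to 0.27 (8p DOX against No DOX), 0.43 (against the other clones) and -0.13 (XIST against vector), all in the direction of the main value. MVK in the 8p clone became 9.98% and FDFT1 26.7% after that shift, and 1.68% to 6.68% and 17.7% to 22.5% with a DOX library left out. With the mean of the other libraries of the table as baseline they were 37.1% and 35.8% in the 8p clone, -42.9% and 50.9% in the 12q clone, and -11.3% and -29.8% in the 1p clone. Single uncalled genes changed sign in 17 of 827 refits, none with a main difference above 0.19 (log2). Depth is unknown, and most contrasts rest on 1 library a side.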

Other observations

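In the wider lists, ACSS2, which makes acetyl-CoA from acetate, was at 6.80 FPKM in the 8p No DOX library and at 17.2 and 17.3 FPKM in the 8p DOX libraries, the largest difference among the core and wider genes in that contrast (1.23 ± 0.28, log2, standard error, adjusted p = 0.854, limma). It was at 5.25, 7.87 and 8.37 FPKM in the 1p XIST, vector and 12q clones with DOX, and at 12.2 and 14.2 FPKM in the 12q clone without and with DOX on NextSeq. SEC24D and SEC23A, coat proteins of the vesicles that leave the endoplasmic reticulum, were at 9.29 against 21.7 and 18.6 FPKM and at 16.8 against 28.9 and 25.8 FPKM in the 8p clone without and with DOX. SEC24D was higher although the 40 expressed genes within 10 Mb of it on chromosome 4 had a median of -0.10 relative to all genes in that contrast. These 3 genes were chosen after their values were seen, and none was called.

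ACSL4, on the X chromosome, was at 0.0641 FPKM in the 1p XIST HiSeq library and at 0.00935 and 0 FPKM in the 1p NextSeq libraries without and with DOX, but between 19.3 and 30.3 FPKM in every other library, the 1p vector clone included. The 51 expressed HiSeq genes within 10 Mb of ACSL4 had a median of -0.13 relative to all genes between the 1p XIST and vector clones. ACSL5 was at or below 1.015 FPKM in the 1p XIST and 8p libraries of both tables and between 5.96 and 7.99 FPKM in the vector and 12q libraries.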
